A study of Mus musculus with 6 samples.

Results

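Where nucleosome-sized DNA is left in mouse sperm was described for one stretch of chromosome 8, the 2 Mb that end at 21000000 in mm10, in lists of enriched regions (peaks) of 2 K49A and 4 wild-type (WT) libraries. A peak was a member if all of it lay between these borders, which gave 366 peaks of 83628 in the 6 lists. By library the members were 33 of 700 peaks in K49A 1 and 60 of 1017 in K49A 2, against 57 of 11313 in WT 1, 66 of 20458 in WT 2, 77 of 22237 in WT 3 and 73 of 27903 in WT 4. The stretch was picked from the positions of peaks in these same lists, with its density known, so numbers, densities, covered lengths and overlaps are given as a description and without a test. No peak crossed either border.

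The sperm came from epididymis and vas deferens. K49A animals carry an alanine in place of a lysine in protamine 1, and WT animals do not; the series design names C57BL6 as the strain of the WT mice and calls the 2 K49A and 4 WT libraries biological replicates. No source used here gives the ages or the number of animals behind a library. All libraries of both genotypes shared a treatment with DNase I, a detergent step, decondensation with 50 mM DTT, digestion with 5 and then 15 units of micrococcal nuclease (MNase), and excision of mononucleosome-sized DNA from a gel. The same number of sperm was taken for each genotype. The p-values below measure the spread between these libraries only. The lists hold no read counts, so depth is unknown, and they hold no expression values against which the cell type could be checked.

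MNase cuts DNA that is free of protein and spares DNA wound around histones. Most histones are replaced by protamines when the sperm nucleus is packed, so nucleosome-sized fragments mark DNA that still carries nucleosomes. Beta-defensins (Defb genes) encode small cationic antimicrobial peptides of epithelia, and many of them, with the related Spag11 genes, are expressed in the epididymis. The stretch is named for its Defb genes, but it also holds many gene copies and pseudogenes known only by Gm numbers or clone names. The RefSeq table for GRCm38.p6 placed 57 genes in it. These were 13 Defb genes, 2 Spag11 genes, 8 other protein-coding genes, 28 pseudogenes (5 of them transcribed) and 6 long non-coding RNA genes.

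Start-site sequences show the make-up of the stretch, and were taken from RefSeq (GRCm38.p6, 250 bases before to 50 after the start site). Of its genes, 21 had an entry, with 22 windows in all. The first sequence below is shown because 3 coding genes have it letter for letter, 4930467E23Rik (chr8:19729326-19729625, plus strand), Gm15319 (chr8:20363153-20363452, minus strand) and Gm21119 (chr8:20614677-20614976, plus strand). Gm40468 (chr8:20261150-20261449, minus strand), a long non-coding RNA gene, and Defb33 (chr8:20892417-20892716, plus strand) are shown because they are the only entries of the stretch that lay under a peak. Defb3 (chr8:19293111-19293410, plus strand), which encodes an antimicrobial peptide of the airway, stands for the Defb genes with no peak. Capitals mark the dinucleotide CG.
4930467E23Rik, Gm15319 and Gm21119: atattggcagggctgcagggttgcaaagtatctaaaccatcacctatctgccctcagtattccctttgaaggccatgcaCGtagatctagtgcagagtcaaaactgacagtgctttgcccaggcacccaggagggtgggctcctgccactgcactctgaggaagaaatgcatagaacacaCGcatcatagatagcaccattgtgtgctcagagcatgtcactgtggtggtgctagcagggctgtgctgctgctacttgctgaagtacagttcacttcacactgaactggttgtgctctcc
Gm40468: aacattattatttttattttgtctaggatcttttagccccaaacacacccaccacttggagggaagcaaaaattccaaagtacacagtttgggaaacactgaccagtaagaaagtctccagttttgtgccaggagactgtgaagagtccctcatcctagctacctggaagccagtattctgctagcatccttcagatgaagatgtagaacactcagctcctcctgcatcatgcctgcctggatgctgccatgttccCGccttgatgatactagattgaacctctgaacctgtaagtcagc
Defb33: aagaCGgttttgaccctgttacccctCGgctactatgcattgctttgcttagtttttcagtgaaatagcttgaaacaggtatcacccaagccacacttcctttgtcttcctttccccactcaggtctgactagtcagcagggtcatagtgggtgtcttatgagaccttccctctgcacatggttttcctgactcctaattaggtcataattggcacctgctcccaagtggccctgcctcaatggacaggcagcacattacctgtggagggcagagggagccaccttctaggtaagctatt
Defb3: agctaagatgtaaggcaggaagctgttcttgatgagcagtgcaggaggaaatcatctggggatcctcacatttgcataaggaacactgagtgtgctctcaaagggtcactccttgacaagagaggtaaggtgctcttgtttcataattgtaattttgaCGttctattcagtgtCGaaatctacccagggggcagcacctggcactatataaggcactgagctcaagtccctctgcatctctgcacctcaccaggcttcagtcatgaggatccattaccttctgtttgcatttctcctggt

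All of these windows are poor in CG. The shared window, Defb33 and Defb3 have 2 CG each and Gm40468 has 1. At least 2 CG are found in 85.9% of all 32851 RefSeq windows of this length, whose median is 7, and the median over the 22 windows of the stretch is 1.5. Repetition was found in part of the list: 8 of the 22 windows share an exact run of 50 bases with the window of another gene. These are the 3 coding genes named first and Defb3, Defb6, Defb7, Defb8 and Defb46. Those Defb genes had no peak in any library. The same share over all RefSeq windows was not counted. The Defb genes form a family of their own, and Defb3 and Defb8 are 87.9% identical over an alignment of their windows. Reads from such copies cannot be told apart where the letters are the same, and no source used here says how the authors treated reads that match several places. The part of repetition in the results was not tested.

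Few peaks of the stretch lay at its beta-defensin genes, and none of the K49A peaks did. Of all coding genes, only 1.25 and 1.58% had a peak in or within 1 kb of the gene in K49A 1 and 2. From the left border to the end of Defb7, 497.8 kb that hold 14 of the 15 Defb and Spag11 genes, there were 0 peaks in K49A 1 and in K49A 2, against 1, 0, 1 and 3 peaks in WT 1 to 4. In the 1395 kb between Defb7 and Defb33 there were 32 and 58 peaks in K49A 1 and 2, against 53, 64, 74 and 68 in WT 1 to 4. These were 97.0 and 96.7% of the peaks of the stretch in K49A, and 93.0, 97.0, 96.1 and 93.2% in WT. The middle part has 32 annotated genes, of which 22 are pseudogenes, 5 are coding and none is a Defb gene. The name "beta-defensin cluster" therefore fits the left part of the stretch, which is nearly empty, and the stretch is called the chromosome 8 window from here on. The first K49A peaks began at 19698705 in K49A 1 and 19698673 in K49A 2, and the nearest of them was 200898 bp from the end of Defb7.

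**Figure D1:**
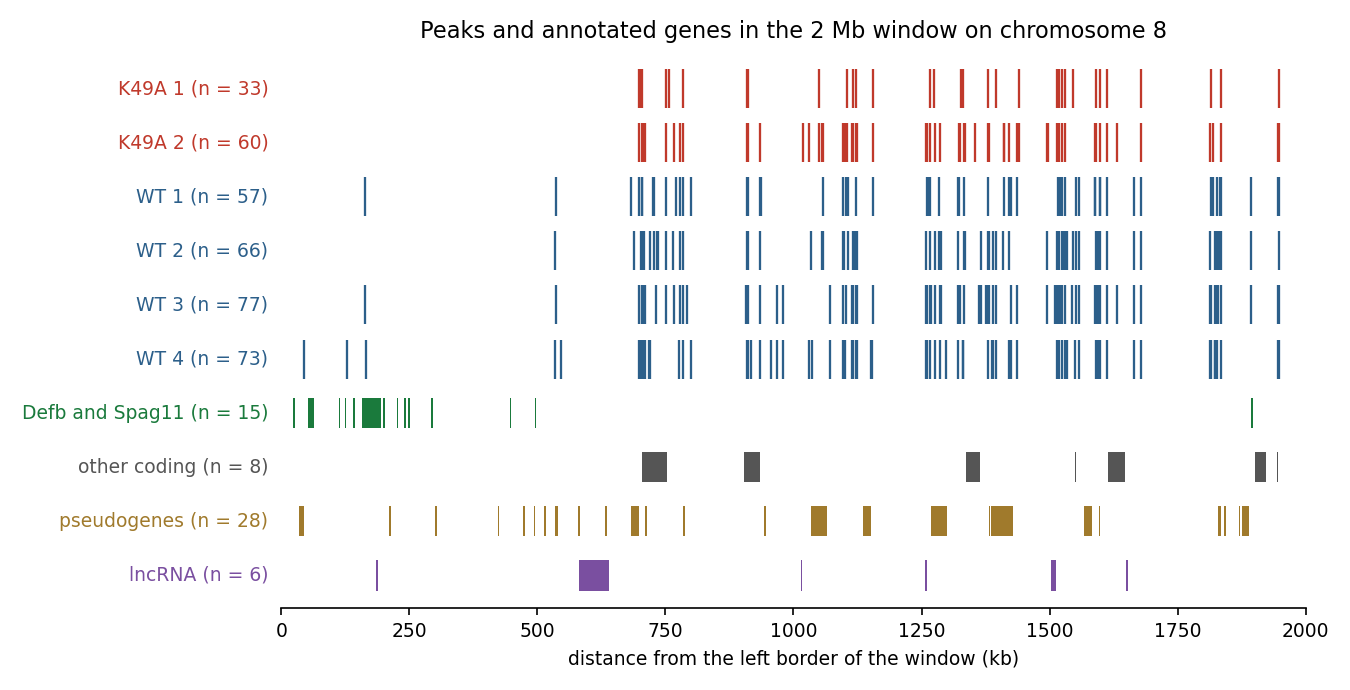
Peaks of each library (vertical ticks at peak midpoints, K49A above WT) and annotated genes by class (boxes) along the window, with distance from its left border in kb on the x axis. Both K49A rows are empty over the Defb and Spag11 genes at the left, where WT rows hold 0 to 3 peaks, and all rows are filled over the part with pseudogenes and Gm copies.

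Within the filled part the peaks came in groups that recurred in every library. In steps of 100 kb, the fullest step was the one from 20500001 to 20600000, with 8 peaks in each K49A library, against 11, 14, 15 and 12 in WT 1 to 4. Next was the step from 19700001 to 19800000, with 5 and 7 peaks in K49A 1 and 2, against 9, 12, 11 and 10 in WT 1 to 4. The steps from 19800001 to 19900000 and from 20700001 to 20800000 had 0 peaks in all 6 libraries. In all, 5 steps were empty in every library, and the other 3 lay among the Defb genes between 19200001 and 19500000. Between merged regions of the 6 lists the median gap was 3.09 kb. Gaps of 133, 107 and 105 kb inside the filled part held no whole annotated gene, though one end of 9530057J20Rik reached into the second and one end of Gm40468 into the third. The build's sequence there was not examined.

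Peak density in the window was of the same order in both genotypes. K49A 1 and 2 had 16.5 and 30.0 peaks per Mb in the window, against 28.5, 33, 38.5 and 36.5 in WT 1 to 4, so K49A 2 lay within the WT range and K49A 1 below it. In the rest of the genome the same libraries had 0.247 and 0.354 peaks per Mb in K49A 1 and 2, against 4.17, 7.55, 8.20 and 10.3 in WT 1 to 4, with a wide space between the genotypes. The difference between K49A and WT in the mean log2 number was -0.61 in the window (46.5 ± 19.1 peaks in K49A, SD, n = 2, against 68.3 ± 8.77 in WT, SD, n = 4) and -4.60 in the rest of the genome. Leaving out K49A 1 gave -0.18 in the window and leaving out K49A 2 gave -1.04, so this value rests on which K49A library is taken.

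Seen from the lists, the window took up 4.71% of all peaks in K49A 1 (exact 95% interval 3.27 to 6.56%, counting error only) and 5.90% in K49A 2 (4.53 to 7.53%). The share was 0.504, 0.323, 0.346 and 0.262% in WT 1 to 4, with intervals that reached from 0.205 to 0.652%. On chromosome 8 it held 47.1 and 56.6% of the peaks of K49A 1 and 2, against 8.76, 5.58, 6.05 and 4.57% in WT 1 to 4. The window was 66.8 and 84.7 times as dense as the rest of the genome in K49A 1 and 2, and 6.84, 4.37, 4.69 and 3.54 times in WT 1 to 4. Among stretches of 2 Mb over the genome it ranked first by number of peaks in K49A 2 and in WT 1, second in K49A 1, WT 2 and WT 3, and 14th in WT 4. The fuller stretch in K49A 1 was on chromosome 5 from 15000001 to 17000000 with 35 peaks.

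**Figure D2:**
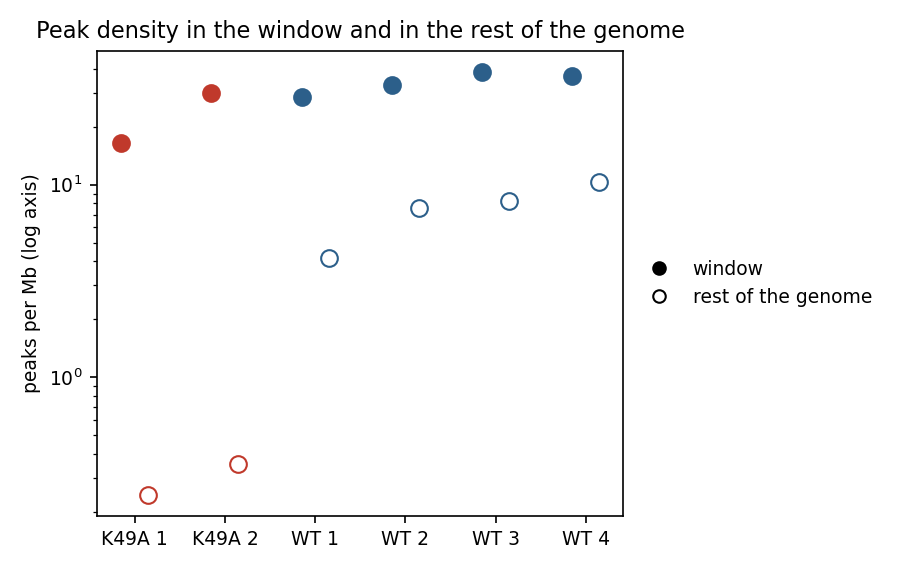
Peaks per Mb (log axis) in the window (filled points) and in the rest of the genome (open points) for the 2 K49A (red) and 4 WT (blue) libraries. The filled points lie between 16.5 and 38.5 in all 6 libraries, while the open points are at 0.247 and 0.354 in K49A and from 4.17 to 10.3 in WT.

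The lists end at different levels of significance, so the numbers were also set side by side at equal levels of the authors' −log10 p. With a minimum of 5 the window held 33 and 60 peaks in K49A 1 and 2, against 38, 52, 54 and 51 in WT 1 to 4, and the mean was 46.5 in K49A and 48.8 in WT. Outside the window the means at that level were 766.5 in K49A and 8867 in WT, a WT-to-K49A ratio of 11.6 where the lists as deposited gave 25.1. At 6 the window held 28 and 53 peaks in K49A 1 and 2, against 20, 33, 38 and 36 in WT 1 to 4. At 10 it held 4 and 13 in K49A, against 4, 6, 6 and 11 in WT, and at 20 it held 0 in every library. The genotypes also drew together outside the window as the level rose, with means of 224.5 in K49A and 557 in WT at 10 (ratio 2.48) and 114 in K49A and 135 in WT at 20 (ratio 1.18). At 5, 6 and 10 the values of the genotypes overlapped in the window. With every list held to its 700 strongest peaks, 33 and 55 were in the window in K49A 1 and 2, against 4, 10, 11 and 10 in WT 1 to 4. This cut sets unequal levels and leaves K49A 1 whole. Its lowest −log10 p was 4.73 and 5.79 in K49A 1 and 2, against 9.97, 8.20, 8.64 and 10.5 in WT 1 to 4. These numbers therefore do not compare the genotypes at 1 level of significance.

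The peaks of the window differed in width from other peaks in no common direction over the libraries. Their median width was 309 bp in K49A 1 (range 200 to 1056) and 320.5 bp in K49A 2 (200 to 1424), against 325 bp in WT 1 (200 to 1075), 423 bp in WT 2 (200 to 1762), 365 bp in WT 3 (200 to 1594) and 382 bp in WT 4 (200 to 2568). Both K49A medians lay below all 4 WT medians, a difference of -0.24 on the log2 scale (two-sided exact permutation p = 0.133, the lowest that 15 splits allow). In the rest of each list the medians were 301 and 294 bp in K49A 1 and 2, against 405, 557, 543 and 366 bp in WT 1 to 4. Window peaks were wider than the rest in 3 libraries (K49A 1, K49A 2 and WT 4) and narrower in the other 3, with a mean log2 difference of -0.18 ± 0.29 (SD, n = 6; exact sign-flip permutation test, two-sided p = 0.25, adjusted p = 0.25).

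Covered length was lowest in K49A 1 and highest in WT 4. Window peaks covered 13.4 and 28.9 kb in K49A 1 and 2, against 24.1, 37.5, 37.1 and 38.2 kb in WT 1 to 4. K49A 2 lay above WT 1 and below the other WT libraries. As a share of the window this was 0.669 and 1.44% in K49A 1 and 2, and 1.21, 1.88, 1.86 and 1.91% in WT 1 to 4. In the rest of the genome peaks covered 0.009655 and 0.0141% in K49A 1 and 2, against 0.212, 0.499, 0.535 and 0.510% in WT 1 to 4.

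Enrichment was moderate, and the ranges of the genotypes overlapped although both K49A medians were above the 4 WT medians. The authors' fold of a peak is relative to its own library's background and was not compared between lists by a test. Its median was 3.68 in K49A 1 and 3.35 in K49A 2, against 3.30, 3.23, 3.17 and 3.20 in WT 1 to 4, and its highest value was 6.26 and 5.23 in K49A, against 6.21, 5.99, 6.68 and 5.63 in WT. The highest folds anywhere in the lists were 30.3 to 33.3, so the strongest peaks of the genome were not in the window. Ranked by −log10 q within its own list, the median window peak stood at percentile 54.4 and 58.7 in K49A 1 and 2, against 62.4, 83.2, 78.3 and 77.7 in WT 1 to 4. It was above the middle of the list in 6 of 6 libraries, by 19.1 ± 12.05 points on average (SD, n = 6; exact sign-flip permutation test, two-sided p = 0.03125, the smallest possible, adjusted p = 0.0417 over 4 such tests). The libraries share the window and many of its regions, so this p-value covers the spread between libraries and cannot speak for other places. Among the strongest 10% of a list were 0 window peaks in each K49A library, against 5, 20, 21 and 21 in WT 1 to 4. With only peaks of −log10 p from 10 up, the mean shift turned to -6.01 points (exact permutation test, adjusted p = 0.4375).

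A smaller share of window peaks than of other peaks lay at the ends of coding genes. Within 1 kb of an end lay 1 of 33 and 3 of 60 window peaks in K49A 1 and 2 (3.03 and 5.00%), against 5, 4, 5 and 4 peaks in WT 1 to 4 (8.77, 6.06, 6.49 and 5.48%). The exact 95% intervals were 0.0767 to 15.8% and 1.04 to 13.9% in K49A, and in WT they reached from 1.51 to 19.3%. In the rest of the lists the shares were 12.7 and 7.52% in K49A 1 and 2, against 51.2, 42.8, 43.0 and 36.8% in WT 1 to 4. The window was lower in 6 of 6 libraries, with a mean difference of -26.5 ± 16.4 percentage points (SD, n = 6; exact sign-flip permutation test, two-sided p = 0.03125, adjusted p = 0.0417). By genotype the mean was -6.12 points in K49A and -36.8 points in WT. All libraries share this window and its genes, so the test covers the spread between libraries and cannot speak for other places. The window was also picked from peak positions, the same values from which these shares are counted. The mean difference over libraries stayed negative but lost the call with a minimum −log10 p of 10, a minimum −log10 q of 2 or lists of 700 peaks (exact permutation, adjusted p = 0.0625 for each) and with all annotated genes (0.0833). Where the adjusted p was 0.0625, the unadjusted p stayed the smallest possible, and the call was lost in the adjustment alone. The zones within 1 kb of a coding gene end make up 4.35% of the bases of the window and 2.93% of the rest. At the ends of all annotated genes, which take up 9.995% of the window's bases, lay 15.2 and 18.3% of window peaks in K49A 1 and 2, against 26.3, 16.7, 19.5 and 23.3% in WT 1 to 4. In the rest of the lists these shares were 21.3 and 14.0% in K49A 1 and 2, and 60.1, 53.4, 53.6 and 44.9% in WT 1 to 4, so K49A 2 was higher in the window and the other 5 libraries were lower.

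Midpoints in coding genes were also fewer. They were 9.09 and 13.3% of window peaks in K49A 1 and 2, against 17.5, 18.2, 18.2 and 15.1% in WT 1 to 4, and in the rest 38.5 and 37.1% in K49A and 61.9 to 68.7% in WT. This share too was lower in 6 of 6 libraries, with a mean difference of -40.1 ± 10.9 points (SD, n = 6; exact sign-flip permutation test, two-sided p = 0.03125, adjusted p = 0.0417). By genotype the mean was -26.6 points in K49A and -46.8 points in WT. Here too the libraries share the window and its genes, so they do not replicate the choice of place. The mean difference over libraries stayed negative but lost the call under the same 4 alternatives (exact permutation, adjusted p = 0.0625 for each). In each of these the unadjusted p stayed the smallest possible, and the call was lost in the adjustment alone. Coding genes fill 12.4% of the window and 38.2% of the rest, a fixed trait that all 6 libraries share. The sign-flip test takes no account of it. Its p-value therefore cannot show that window peaks lie in genes less often than the gene content gives. The part of gene content in the difference was not tested. Between genotypes, K49A lay below WT in the window for both shares without overlap, with differences of -2.69 points at gene ends and -6.03 points in genes (two-sided exact permutation p = 0.133 for each, the lowest that 15 splits allow). The genotypes overlapped at gene ends with zones of 5 kb (-1.10 points, exact permutation p = 1.0) and with borders moved in by 250 kb (-2.07 points, exact permutation p = 0.267). When pseudogenes and non-coding genes were counted too, midpoints in a gene were 18.2 and 30.0% in K49A 1 and 2, against 29.8, 40.9, 33.8 and 32.9% in WT 1 to 4, and these ranges overlapped.

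**Figure D3:**
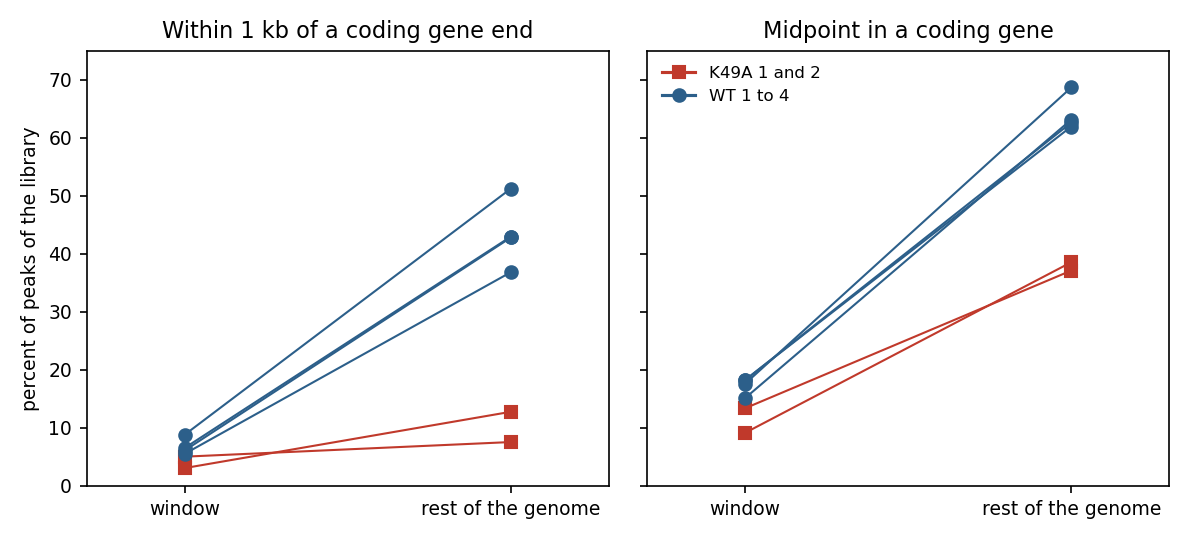
Percent of each library's peaks within 1 kb of a coding gene end (left panel) and with the midpoint in a coding gene (right panel), in the window and in the rest of the genome, with lines joining the values of 1 library (K49A squares, WT circles). All 12 lines rise toward the rest of the genome, and at gene ends the WT values of 5.48 to 8.77% in the window stand against 36.8 to 51.2%.

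Of the 13 Defb genes, 11 had no peak in the gene or within 1 kb of it in any library, and neither did Spag11a and Spag11b, which encode epididymal proteins related to beta-defensins. No Defb or Spag11 gene had a K49A peak. Defb14, a beta-defensin gene of 35 kb (19160244 to 19195309), had a peak inside it in 3 WT libraries, with folds of 3.06 in WT 1, 3.22 in WT 3 and 2.63 in WT 4, and none in WT 2. Defb33 (20892667 to 20897723), the single Defb gene at the right of the window, had a peak within 1 kb of an end with folds of 3.05 in WT 1, 3.13 in WT 2 and 2.57 in WT 3. The peaks of WT 2 and WT 3 covered all 300 bases of the Defb33 sequence printed above, and that of WT 1 lay beside it. The other Defb genes were Defb3, Defb4, Defb5, Defb6, Defb7, Defb8, Defb12, Defb34, Defb38, Defb39 and Defb46, between 1001 bp (Defb34) and 126814 bp (Defb3) from the nearest peak of any library.

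The count at gene ends gave the same order. Of the 13 Defb genes of the window, 0 had a peak within 1 kb of an end in K49A 1 and 2, against 1, 1, 1 and 0 in WT 1 to 4, where 0.429 and 0.334% of all 21887 coding genes had one in K49A 1 and 2, and 28.8, 43.0, 46.3 and 49.9% in WT 1 to 4. Outside the window, 29 Defb genes had 0 such genes in both K49A libraries, against 1, 1, 2 and 1 in WT 1 to 4, namely Defb42 and Defb36. The 28 Defa genes, which encode the alpha-defensins of the gut, had 0 in every library. In the same window the 8 other coding genes had 1 and 2 in K49A 1 and 2, against 2, 2, 3 and 3 in WT 1 to 4.

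Peaks also met pseudogenes and other coding genes. Of the 28 pseudogenes, 6 and 8 had a peak in the gene or within 1 kb of it in K49A 1 and 2, against 10, 9, 8 and 13 in WT 1 to 4. Over all 10609 pseudogenes of the genome the shares were 0.339 and 0.481% in K49A 1 and 2, and 3.18, 6.17, 6.68 and 7.58% in WT 1 to 4. Of the 8 other coding genes, 2 and 4 had one in K49A 1 and 2, against 3, 3, 5 and 3 in WT 1 to 4. Over all coding genes the shares were 1.25 and 1.58% in K49A 1 and 2, and 36.2, 52.6, 55.7 and 60.4% in WT 1 to 4. By the same measure 0 of the 15 Defb and Spag11 genes had a peak in each K49A library, against 2, 1, 2 and 1 in WT 1 to 4. These counts rest on the peaks that chose the window. Besides Defb14 and Defb33, 16 genes had such a peak in at least 2 libraries, and 7 genes had one in all 6. The shares over the genome for these joint counts were not counted, so they only list genes. The 7 are named next. They were the coding genes 4930467E23Rik (19704311 to 19753603) and 9530057J20Rik (19903378 to 19935330) and the pseudogenes Gm10060, 6820431F20Rik, Gm7807, 2610005L07Rik and Gm20946. 4930467E23Rik was the fullest, with 2 and 4 peaks in K49A 1 and 2, against 5, 8, 7 and 6 in WT 1 to 4, and its best folds were 3.18 and 4.20 in K49A, against 4.29, 4.02, 3.94 and 3.20 in WT. 9530057J20Rik had 2 and 3 peaks in K49A 1 and 2, against 4, 3, 4 and 4 in WT 1 to 4.

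Of the 5 pseudogenes with a peak in all 6 libraries, the best folds of the genotypes overlapped at 4 and not at Gm7807. The same share over the pseudogenes of the genome was not counted. There they were 4.02 and 3.94 in K49A 1 and 2, against 3.69, 3.86, 3.40 and 3.41 in WT 1 to 4. A further WT 3 peak (20379328 to 20380015, fold 4.73) lay just over 1 kb from Gm7807, and with it the genotypes overlapped. Gm10060 had 1 peak in every library, with folds of 4.12 and 3.35 in K49A 1 and 2, against 3.93, 4.87, 4.98 and 4.87 in WT 1 to 4. Gm20946 had best folds of 3.68 and 4.47 in K49A 1 and 2, against 3.36, 5.36, 4.53 and 5.20 in WT 1 to 4. Gm20778 (pseudogene), Gm40468 (non-coding) and Gm21112 (pseudogene) had peaks in 5 libraries, Gm20778 without WT 3 and the other two without K49A 1. Gm16425, Gm6483 and Gm40469 had them in 4 libraries, Gm20584 in 3, and Gm15319 and Gm21119 in K49A 2 and WT 3 only. Both K49A libraries had a peak at 8 genes, and 13 had one in at least 1 of them. The shares over the genome for these joint counts were not counted either. At Gm40468 the printed sequence lay wholly under a peak in K49A 2 (20261149 to 20261536, fold 3.51) and in WT 3 (20261057 to 20261572, fold 3.52). In WT 1 a peak covered 213 of its 300 bases (fold 3.44) and in WT 4 a peak covered 257 (fold 3.07), while K49A 1 and WT 2 had no peak over it.

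The 3 genes with the same start-site sequence had peaks at a like distance before the start site but in different libraries; they were picked after their values were seen. Before Gm21119 (start site 20614927) a region from 1.79 to 2.83 kb upstream had a peak in all 6 libraries, with folds of 6.26 and 4.74 in K49A 1 and 2, against 6.21, 5.99, 6.68 and 4.98 in WT 1 to 4. Before the 4930467E23Rik start site (19729576) a region from 1.43 to 3.00 kb upstream had peaks in WT 1 and WT 2 only, with folds of 3.43 to 4.29. This start site and region lie inside the annotated gene (19704311 to 19753603). Before Gm15319 (start site 20363202) the region was 1.98 to 2.76 kb upstream, with peaks in WT 2 (fold 4.13) and WT 3 (fold 3.47). The start sites themselves, over the letters shown above, lay under no peak in any library.

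Merging the 6 lists gave 126 regions in the window of 44743 in the genome, with a median width of 428.5 bp and a range of 200 to 2999 bp. Of the 126, 18 were called in all 6 libraries, 14.3% where the share over all merged regions was 0.574%. Another 6 were called in all 4 WT and no K49A library, 4.76% against 13.8% in the genome, and 2 in each K49A but not in any WT library, 1.59% against 0.0469%. At least 1 K49A library and no WT library called 9 regions (7.14% against 1.07%). Without K49A 1 the regions called in K49A 2 and no WT library were 6. Without K49A 2 those called in K49A 1 and no WT library were 5. Regions called in every WT library in use and no K49A library were 10 without K49A 2 and 10 without WT 1. The shares over the genome with a library left out were not counted. At least 1 K49A and 1 WT library called 55 regions (43.7% against 1.87%), and at least 1 K49A library called 64 (50.8% against 2.94%). A single library called 43 (34.1% against 59.1%), of which 7 came from K49A and 36 from WT. These counts used the same calls that chose the window.

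**Figure D4:**
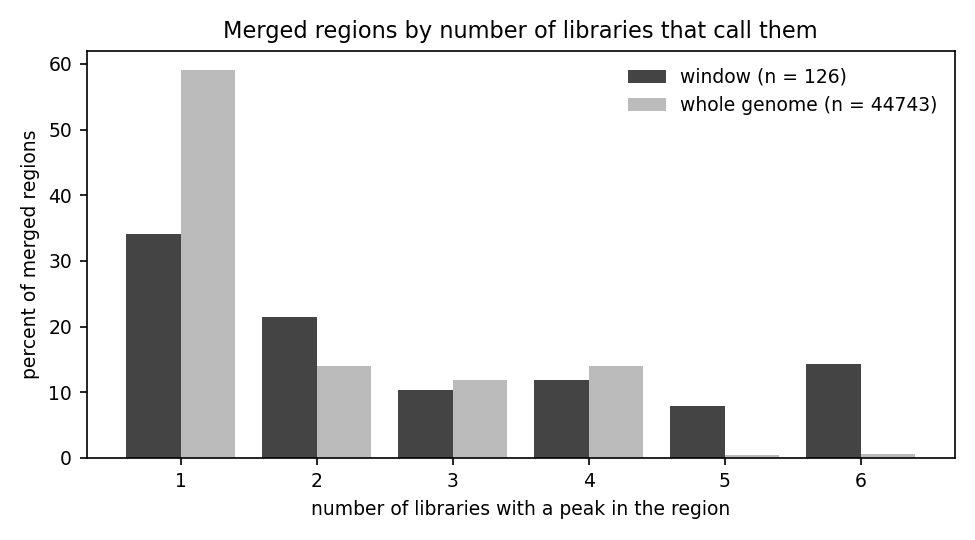
Percent of merged regions (y axis) by the number of libraries that have a peak in them (x axis), in the window (dark bars) and in the whole genome (light bars). Regions called in 6 libraries are 14.3% in the window and 0.574% in the genome, and regions called in 1 library are 34.1 and 59.1%.

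The shared regions ran through the filled part from 19703141 to 20948564, and 4 of the 18 overlapped an annotated gene. By rank within the lists the leading shared region was chr8:20677787-20678855, 25433 bp from the nearest gene, Gm46074, with folds of 6.05 and 5.23 in K49A 1 and 2, against 5.99, 4.56, 4.67 and 5.63 in WT 1 to 4. Next was chr8:20612101-20613137, the region before Gm21119 given above. The third, chr8:20378447-20381445, lay over the pseudogene Gm7807 and was the widest at 2999 bp, with folds of 4.02 and 3.94 in K49A 1 and 2, against 3.69, 3.86, 4.73 and 3.41 in WT 1 to 4. The fourth lay over Gm10060, whose folds are given above.

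In most of the 10 leading shared regions the genotypes overlapped in fold, with 2 exceptions. With 2 against 4 libraries even a full separation cannot reach an exact permutation p below 0.133 (two-sided, 15 splits). How often folds separate among the 257 regions of the genome called in all 6 libraries was not counted. The separated regions here and below are therefore a description and show no genotype difference. At chr8:20588250-20590787, 4810 bp from the pseudogene Gm21112, both K49A folds (4.75 and 4.76) lay above all WT folds (3.69, 3.67, 3.39 and 3.69). At chr8:19908562-19910047, inside 9530057J20Rik, both K49A folds (4.54 and 3.35) lay above all WT folds (3.06, 3.18, 2.93 and 3.31). None of the 10 had both K49A folds below all WT folds. Among the 8 shared regions of lower rank, picked after their values were seen, chr8:20813276-20814662 had both below (3.55 and 3.25 in K49A, against 3.64, 3.66, 3.86 and 3.94 in WT) and chr8:19910518-19911046 had both above (3.52 and 3.97 in K49A, against 3.10, 2.91, 2.87 and 2.71 in WT). Of the others, chr8:20121744-20123984 had 3.47 and 4.07 in K49A 1 and 2, against 4.46, 3.57, 4.43 and 4.99 in WT 1 to 4. The region chr8:20266711-20267897 had 3.95 and 4.34 in K49A, against 3.34, 4.77, 4.57 and 4.94 in WT. At chr8:20946971-20948564, the last before the right border, folds were 3.77 and 4.07 in K49A, against 3.28, 3.70, 3.17 and 4.31 in WT. Beside Gm20946 lay chr8:20835244-20835644, with the folds of that gene given above.

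**Figure D5:**
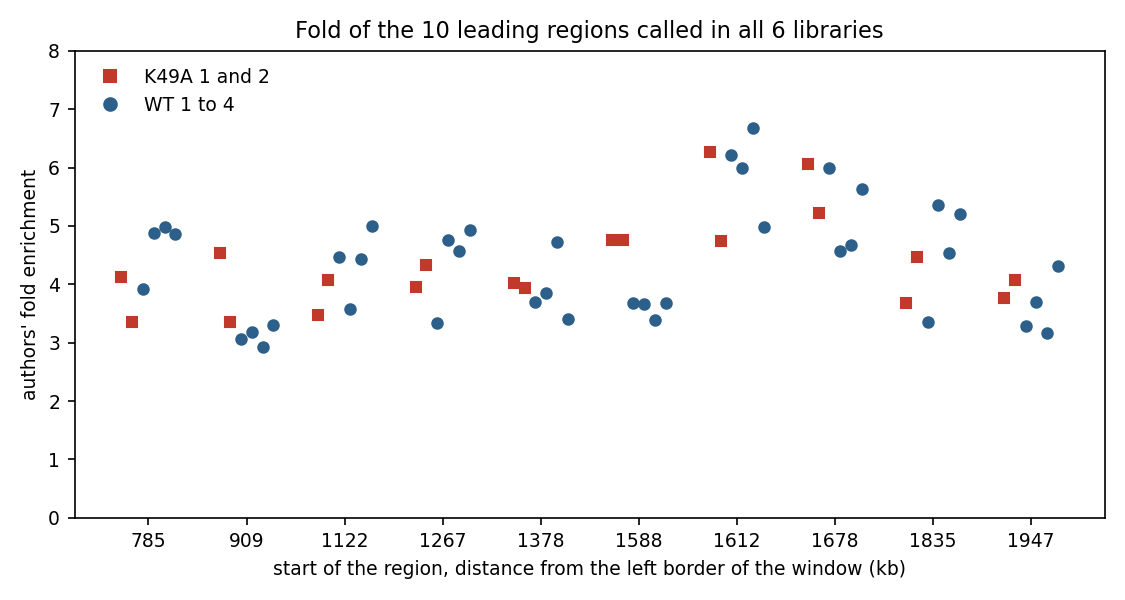
The authors' fold enrichment (y axis) of the best peak in the 10 leading regions called in all 6 libraries, ordered along the window and evenly spaced (x axis, distance of the region's start from the left border in kb), for K49A 1 and 2 (red squares, left to right) and WT 1 to 4 (blue circles, left to right). Values lie between 2.93 and 6.68, and squares and circles mix except in the region inside 9530057J20Rik and the one near Gm21112, where both squares are above all circles.

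The 6 regions called in all 4 WT and no K49A library had mean WT folds between 2.90 and 4.26. The first by rank, chr8:20557282-20558861, had folds of 4.10, 4.25, 4.64 and 4.03 in WT 1 to 4 and lay 5056 bp from Gm40469. The next, chr8:20321363-20321792, had 3.74, 3.62, 4.21 and 3.72. The other 3 named by the rule were chr8:20664156-20664626 (folds 2.82 to 3.79), chr8:20825890-20826255 (2.82 to 3.73) and chr8:20550128-20550793 over Gm40469 (2.94 to 4.77). The 2 regions called in both K49A libraries and no WT library were chr8:20049209-20049418, inside the pseudogene Gm20778, with folds of 4.04 and 3.38 in K49A 1 and 2, and chr8:20440884-20441196 with 3.52 and 3.09.

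Overlap between libraries was high in both directions within the window. Set against each WT library in turn, K49A window peaks met a peak (at least 1 bp) in 69.4% of cases (range 56.7 to 78.8% over 8 ordered pairs), where the share for K49A peaks in the rest of the genome was 54.8%. In the other direction, 46.2% of WT window peaks (34.2 to 59.6%) met one when set against each K49A library, where the share in the rest was 2.30%. WT libraries overlapped each other in 62.9% of window peaks and 53.1% in the rest. At least 1 WT library had a peak at 28 of 33 window peaks of K49A 1 (84.8%, where the rest gave 78.9%) and at 54 of 60 of K49A 2 (90%, where the rest gave 63.3%). Of K49A 1 window peaks 78.8% were found in K49A 2 (53.5% in the rest), and of K49A 2 window peaks 43.3% in K49A 1 (37.0% in the rest).

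The borders of the window cut through no group of peaks. The nearest peaks outside the left border ended at 12134339 and 15065053 in K49A 1 and 2, several Mb away, and between 18806729 and 18951344 in WT, with folds of 3.88 and 3.53 in K49A and 3.03 to 3.41 in WT. The last peaks inside ended between 20947869 and 20948564 in all 6 libraries, with folds of 3.77 and 4.07 in K49A and 3.17 to 4.31 in WT. To the right the next peaks began at 23095398 and 23095389 in K49A 1 and 2, with folds of 10.8 and 10.4, and between 21892719 and 22192750 in WT, with folds of 2.47 to 3.90.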

How the data were processed

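MNase-seq peak lists of 2 K49A and 4 WT libraries were used, 1 list per library, with groups and numbers from the sample titles. The submitters' processing notes name MACS2, BWA, SAMtools, Picard, FastQC and the build mm10. Adaptors carried molecular identifiers, per the labels' protocols. No source used here states versions, settings, an input control or whether the identifiers served to drop duplicates. The deposited lists give per peak a fold (a ratio over background), −log10 p, −log10 q and a whole-number score (10 times the −log10 q, rounded down, in at least 99.8% of peaks), all the authors' own values. The score was not used. The lists end at a q of 0.1, with a lowest −log10 p of 4.73 and 4.55 in K49A 1 and 2 and 3.32 to 3.75 in WT. Per the file names blacklisted regions were removed; 82 to 88 peak numbers were absent from a list and 0 within the window.

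Peaks were set against RefSeq genes of GRCm38.p6 (21887 coding) at 1 bp of overlap with zones of 1 kb either side of gene ends. Genotypes were compared by an exact permutation test over 15 splits (tail doubled) and the window with the rest by an exact sign-flip test over 6 libraries with Benjamini-Hochberg adjustment over 4 tests, in Python 3.11.15 with numpy 2.4.6, pandas 2.3.3, scipy 1.17.1 and Biopython 1.88. Code was tested on simulated data. Intervals are Clopper-Pearson. The genes named were all Defb and Spag11 genes, other genes with a peak in or within 1 kb of the gene in at least 2 libraries, and the 10, 5 and all leading regions of 3 calling patterns, ranked by mean −log10 q percentile. The window, members and lists were chosen with earlier results of these data known. Alternatives were other thresholds, list lengths, borders, gene sets and overlaps, and leaving out libraries.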

Additional observations from a re-analysis of the deposited data

Results flagged for a closer look

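In 4 of 24 sets of 4 WT values, 1 library stood apart from the other 3 by Dixon's criterion, which chance meets in about 1 of 20 sets. Covered length in the window was 24.1 kb in WT 1 and 37.1 to 38.2 kb in the other WT libraries, and WT 1 also had the shortest WT list. The fold of the region over Gm10060 was 3.93 in WT 1 and 4.87 to 4.98 in the others. At the region over Gm40469 it was 4.77 in WT 4 and 2.94 to 3.16 in the others. For the region that starts at 20588250 it was 3.39 in WT 3 and 3.67 to 3.69 in the others.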

How the results depend on the processing

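Several results changed with the level at which lists are cut. Below, regions in WT only are those called in every WT library in use and no K49A library. Regions in K49A only are those called in every K49A library in use and no WT library. With a minimum −log10 p of 5 the log2 difference in peak number between K49A and WT was -0.12 in place of -0.61, with 11 regions in all 6 libraries and 2 in WT only. With a minimum of 10 it turned to 0.19 (covered length -0.26), the genotype difference in midpoints turned to 21.8 points, and for the window against the rest the width difference turned to 0.29, the percentile shift to -6.01, and the shares at gene ends and in genes stayed lower by -29.1 and -40.4 points but missed the threshold, with 2, 0 and 0 regions in all 6, WT only and K49A only. With a minimum −log10 q of 2 both shares were lower, by -32.4 and -42.1 points, and the percentile shift was 8.04, and none of these passed the threshold, with 11, 2 and 1 regions. With lists of 700 peaks the log2 differences were 2.39 in number and 1.775 in covered length, the genotype difference in midpoints 9.32 points, the width difference 0.039, the shares -33.0 and -50.7 points and the percentile shift 5.95, none past the threshold, with 3, 0 and 14 regions. The lists of 700 peaks end at unequal levels of −log10 p, as given above. With all annotated genes the shares were lower by -21.3 and -35.05 points, which missed the threshold. With 0.5 of a region covered, 3 regions were called in all 6. For the shares that missed the threshold, except gene ends with all annotated genes, the unadjusted p stayed the smallest possible. Those calls were lost in the adjustment alone. The cause of the other changes was not tested.

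Leaving out 1 library at a time gave -1.04 to -0.18 for number and -1.33 to -0.22 for covered length (low ends without K49A 2, high ends without K49A 1), -0.31 to -0.18 for width, -3.67 to -1.70 and -8.15 to -3.91 points for the genotype differences at gene ends and in genes, and for the window against the rest -0.24 to -0.10 (width), -31.4 to -23.4 (gene ends), -43.4 to -37.9 (in genes) and 16.3 to 22.1 (percentile). With 5 libraries the smallest exact p is 0.0625, so none can pass 0.05. Regions in all libraries in use, WT only and K49A only were 18 to 22, 6 to 10 and 2 to 6. With a replicate block by title number the differences were -0.46 (number), -0.61 (covered length), -0.24 (width), -3.40 and -6.65 points (gene ends and in genes), and by file name they were -0.54, -0.63, -0.16, -3.11 and -5.09, all in the same direction. The numbers share no stated litter or day. Deviations of calls from the group mean gave r across regions of -0.0181 (K49A 1 with WT 1) and 0.00198 (K49A 2 with WT 2). For the file-name pair of K49A 2 with WT 4, r was -0.0148. These values cannot decide the pairing, because deviations from the mean of 2 K49A libraries mirror each other. Moved borders, including a window from Defb7 on that was added after seeing the data, gene ends of 5 kb, and merging within 1 kb changed no direction or call. The genotype difference at gene ends was -1.10 points with ends of 5 kb, and borders moved out by 500 kb gave -5 points at gene ends and -9.445 points in genes. No depth is known, so a missing peak does not show that nucleosomes are absent.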

Other observations

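No window peak shared both its borders with a peak of another library. A start in common with some other library was found for 1 of 33 and 2 of 60 window peaks in K49A 1 and 2, and for 1, 2, 8 and 3 peaks in WT 1 to 4.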
